A study of Homo sapiens with 12 samples.

Results

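The messenger RNA levels of 35 genes of sterol and fatty acid synthesis, of the 58735 genes listed, were examined in TFK1 cells. The members were picked by gene symbol, for their place in the pathways, and comprise 19 enzymes of sterol synthesis, 8 genes of sterol sensing, transport and regulation, and 8 of fatty acid and glycerolipid synthesis. TFK1 is an established human cholangiocarcinoma (bile duct cancer) cell line labelled as wild type, so every group is a culture of 1 line grown in serum. The groups were cells irradiated with 6 Gy, cells given nab-paclitaxel at 1.62 ng/ml, cells given both, and untreated control cells. Nab-paclitaxel is albumin-bound paclitaxel, a drug that stabilises microtubules, and the labels give its enhancement of the response to radiation as the question of the study. RNA was taken 24 h after treatment, with 3 libraries per group labelled as biological replicates. The p-values rest on 1 spread between libraries within groups, shared by the 4 groups, and not on the libraries of the compared groups alone. Expression is given as FPKM (fragments scaled by gene length and library size). Fold changes are log2 changes of FPKM + 1, a scale that understates the change of low genes, and are given ± SE. A gene is said to rise or fall where limma gave an adjusted p under 0.05 over the 13609 genes whose mean reached 1 FPKM. Of the members 34 passed this filter. The exception, the fatty acid desaturase FADS2, ranged over the 12 libraries from 0.761 to 1.31 FPKM and was not tested.

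Cells build cholesterol from acetyl-CoA through mevalonate, isoprenoid diphosphates, squalene and lanosterol, and build fatty acids from the same acetyl-CoA. Both routes are controlled by the SREBP transcription factors, encoded by SREBF1 and SREBF2. When membrane sterol is plentiful, the SREBP escort SCAP is held in the endoplasmic reticulum by the INSIG proteins; when it is scarce, SCAP carries SREBP to the Golgi apparatus, where proteases release the part that enters the nucleus and binds sterol regulatory elements. The product of SREBF2 acts mainly on sterol genes and that of the short SREBF1 transcript mainly on fatty acid genes. INSIG1 is itself a target and closes a feedback loop.

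The 250 bases before the RefSeq start (GRCh38.p14) are given for both SREBP genes and for 5 further members called against control, chosen after their values were seen. SREBF2 is shown for its match to the sterol regulatory element and did not itself pass against control. The list of RefSeq starts used here was partial. It held a start for 31 of the 35 members, and none for ACAT2, FDFT1, SQLE and FASN. These gaps belong to that list and say nothing about RefSeq itself. The motif shares below cover only genes and promoters in the list. Capitals mark matches, on either strand, to the sterol regulatory element TCACNCCAC, to its short form CACNCCA (which lies inside it), to the E-box CACGTG and to the CCAAT box. CCAAT reads ATTGG, and the short form TGGNGTG, where the match is on the other strand. The genes are SREBF2 (chr22:41832855-41833104, plus strand), SREBF1 (chr17:17836987-17837236, minus strand), INSIG1 (chr7:155297628-155297877, plus strand), MSMO1 (chr4:165327419-165327668, plus strand), IDI1 (chr10:1048887-1049136, minus strand, 1 of 3 listed starts), HMGCS1 (chr5:43313413-43313662, minus strand, 1 of 2 listed starts) and SCD (chr10:100346983-100347232, plus strand).
SREBF2: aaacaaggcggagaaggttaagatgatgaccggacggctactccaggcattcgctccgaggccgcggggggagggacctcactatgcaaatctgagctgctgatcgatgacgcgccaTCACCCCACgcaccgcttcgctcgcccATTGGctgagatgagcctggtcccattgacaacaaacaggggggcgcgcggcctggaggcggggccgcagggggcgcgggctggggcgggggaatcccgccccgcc
SREBF1: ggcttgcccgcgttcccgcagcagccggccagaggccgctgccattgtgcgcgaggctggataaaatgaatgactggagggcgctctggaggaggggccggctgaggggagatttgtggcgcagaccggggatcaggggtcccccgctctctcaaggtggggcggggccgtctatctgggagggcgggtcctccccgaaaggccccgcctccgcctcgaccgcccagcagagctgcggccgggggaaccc
INSIG1: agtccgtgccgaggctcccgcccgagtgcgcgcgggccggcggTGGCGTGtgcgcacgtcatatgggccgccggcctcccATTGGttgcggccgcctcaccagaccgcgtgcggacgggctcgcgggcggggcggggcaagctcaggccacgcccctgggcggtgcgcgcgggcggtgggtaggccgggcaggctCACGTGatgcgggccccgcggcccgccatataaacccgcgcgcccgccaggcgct
MSMO1: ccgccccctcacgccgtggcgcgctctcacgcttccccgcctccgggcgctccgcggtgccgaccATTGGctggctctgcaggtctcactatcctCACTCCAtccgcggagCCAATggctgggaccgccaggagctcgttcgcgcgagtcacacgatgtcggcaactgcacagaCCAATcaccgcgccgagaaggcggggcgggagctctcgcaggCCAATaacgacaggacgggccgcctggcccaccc
IDI1: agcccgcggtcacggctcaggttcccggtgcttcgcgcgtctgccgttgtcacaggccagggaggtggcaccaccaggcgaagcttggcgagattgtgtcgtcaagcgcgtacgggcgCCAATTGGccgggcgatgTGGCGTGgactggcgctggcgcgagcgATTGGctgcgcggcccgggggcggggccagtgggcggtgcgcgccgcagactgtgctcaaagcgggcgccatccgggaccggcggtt
HMGCS1: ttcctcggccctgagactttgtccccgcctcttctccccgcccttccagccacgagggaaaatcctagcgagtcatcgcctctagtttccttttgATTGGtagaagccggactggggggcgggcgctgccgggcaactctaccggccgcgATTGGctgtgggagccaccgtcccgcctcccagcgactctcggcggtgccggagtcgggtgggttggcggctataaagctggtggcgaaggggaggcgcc
SCD: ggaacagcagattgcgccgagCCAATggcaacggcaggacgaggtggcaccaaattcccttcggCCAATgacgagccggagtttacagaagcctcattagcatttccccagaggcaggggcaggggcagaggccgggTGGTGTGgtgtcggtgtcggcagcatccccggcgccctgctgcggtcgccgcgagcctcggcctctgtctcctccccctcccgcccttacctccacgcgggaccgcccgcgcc
The full element was found in 1 of the 31 members, SREBF2, where its first base lay 133 bases before the start, against 1.22% of 9200 tested genes with a listed start and 0.883% of all 35116 promoters of that length. The short form was found in 13 of 31 members (41.9%), against 17.8% of tested genes and 14.7% of promoters. CCAAT was found in 20 of 31 members (64.5%), against 42.0% of tested genes and 32.0% of promoters, with 4 matches before MSMO1 and 3 before IDI1. CACGTG was found in 3 of 31 (9.68%), against 11.4% of tested genes and 6.34% of promoters, and was palindromic, so each place matched on both strands. In INSIG1 its first base lay 55 bases before the start. SREBF1 and LBR, both called, held 0 matches to any of the 4 motifs. So did PMVK, CYP51A1, INSIG2, NPC1, ELOVL6, FADS1 and FADS2, none of them called. SCD, which fell after radiation, held the short form and CCAAT. These are letter matches and no measure of binding. The deposited gene spans begin upstream of the RefSeq start, so between 16 bases (SREBF1) and all 250 bases (IDI1) of these stretches lie inside the annotated gene.

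Recovered depth was 14840283 to 17992242 fragments per library, and a tested member rested on 38 to 15722 fragments in a library. Of 8 biliary markers 6 were expressed, with means of 419 FPKM for KRT19 and 107 FPKM for EPCAM over the 12 libraries, while KRT7 was low (0.533 FPKM). The summed biliary markers were 1104 to 1181 FPKM after radiation, 1183 to 1332 after nab-paclitaxel and 1345 to 1702 after the combination, against 719 to 905 in control. The part of this shift in any result was not tested, and in bulk RNA fewer cells of a type and less RNA per cell cannot be told apart. Of other cell types, 1 of 8 hepatocyte markers (SERPINA1) and 1 of 6 fibroblast markers (COL1A1) reached a mean of 1 FPKM, as did 0 of 7 macrophage, 0 of 4 adipocyte and 0 of 5 lymphocyte and endothelial markers; the hepatocyte gene APOB was at 0 in every library. On the second principal component of all tested genes (22.0% of variance), the scores were 28.6 for nab-paclitaxel 1, 3.64 for combination 2 and 30.6 for control 2, and within each group no other library scored as high. Results are therefore also given without these 3 libraries, a choice made with their values known. Dropping libraries because they stand apart narrows the spread within groups. The adjusted p values of that fit therefore run low and cannot be taken at face value.

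Against control, in the fit of all 12 libraries, every member that rose with nab-paclitaxel, alone or in the combination, was a sterol gene. Of the 7 tested fatty acid genes 0 passed there, a count near the share of all genes that rose (5.41% and 12.2%). Of 23 tested fatty acid genes outside the member list, 2 rose after the drug and 7 after the combination. After the drug alone 7 members rose and 0 fell: ACAT2, HMGCS1, IDI1, FDFT1, SQLE and MSMO1, all enzymes of sterol synthesis, and the sterol sensor INSIG1. Among all genes 5.41% rose and 3.41% fell in that comparison. After the combination 9 members rose and 2 fell, where 12.2% of all genes rose and 10.6% fell. The 9 were ACAT2, HMGCS1, MVK, IDI1, FDFT1, MSMO1, NSDHL, INSIG1 and MYLIP, and the 2 were LBR and SREBF1. After radiation alone 0 members rose and 3 fell, where 2.48% of all genes rose and 3.45% fell; the 3 were SREBF1, LBR and SCD. These 3 comparisons share their control libraries. In all, 13 members were called against control.

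Without control 2, nab-paclitaxel 1 and combination 2, 11 members were called after radiation (4 rose and 7 fell), 12 after nab-paclitaxel (11 and 1) and 18 after the combination (12 and 6). Among them were all 3, all 7 and all 11 of the members called in the 12 libraries. In that fit 8.98% of all genes rose and 12.7% fell after radiation, 8.79% and 4.70% after nab-paclitaxel, and 19.95% and 17.2% after the combination. There the fatty acid genes FASN and ACLY also rose after nab-paclitaxel, and ACLY after the combination, so the risen members were no longer all sterol genes. Without nab-paclitaxel 1 alone, 5 members and 1305 genes were called after radiation, against 807 genes in the 12 libraries. After nab-paclitaxel 4 members were called without control 1 and 4 without control 3, with 783 and 524 genes, against 1200 in the 12 libraries. A fit of only the nab-paclitaxel and control libraries called 0 of the 34 members and 8 of all genes.

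**Figure D1:**
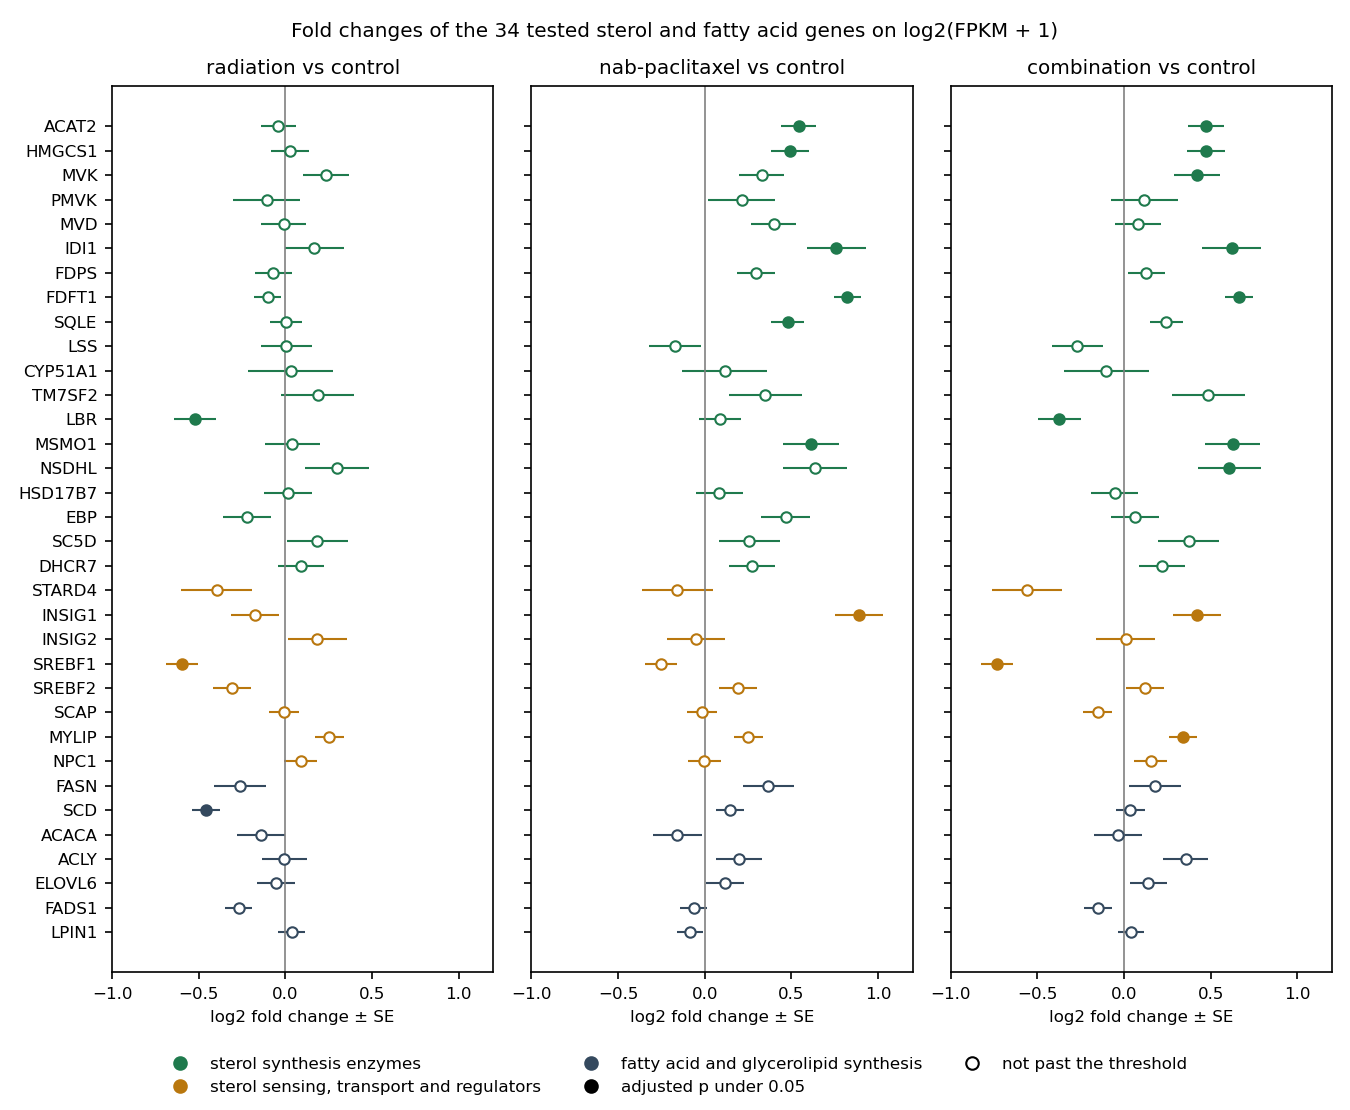
Log2 fold changes on log2(FPKM + 1) (x axis, ± SE) of the 34 tested genes (y axis) for radiation, nab-paclitaxel and the combination against control, 3 libraries per group. Filled points had an adjusted p under 0.05: 3 in the radiation panel, all below 0, 7 in the nab-paclitaxel panel, all above 0, and 11 in the combination panel, of which LBR and SREBF1 lie below 0.

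The first enzymes of the sterol route rose with the drug, alone and in the combination, and did not pass after radiation. ACAT2 (chr6:159760328-159779055, hg38), the cytosolic thiolase that joins acetyl-CoA units, stood at 2.88, 2.33 and 2.35 FPKM after radiation, 4.36, 4.24 and 4.19 after nab-paclitaxel and 4.30, 3.72 and 4.04 after the combination, against 3.14, 2.42 and 2.32 in control; here and below the values are those of replicates 1, 2 and 3. Every library with the drug lay above every library without it. How many of all genes separate in such ways was not counted, so separations here and below only describe the printed values. Against control the log2 fold change was 0.54 ± 0.10 (adjusted p = 0.012) after nab-paclitaxel and 0.47 ± 0.10 (adjusted p = 0.00715) after the combination, with -0.041 ± 0.10 (adjusted p = 0.888) after radiation. ACAT2 overlaps TCP1, on the opposite strand at a mean of 65.5 FPKM, so reads of the 2 genes cannot be told apart unless counting used the strand, which is not stated. HMGCS1 (chr5:43289395-43313512), the HMG-CoA synthase, reached 19.4, 17.2 and 19.3 FPKM after radiation, 29.9, 24.2 and 24.6 after nab-paclitaxel and 24.2, 28.9 and 24.2 after the combination, against 17.7, 20.3 and 16.9 in control. All 6 libraries with the drug again exceeded the 6 without it. It rose by 0.49 ± 0.11 (adjusted p = 0.0213) after nab-paclitaxel and by 0.47 ± 0.11 (adjusted p = 0.0105) after the combination, and was 0.026 ± 0.11 (adjusted p = 0.939) after radiation. The drug call was lost without nab-paclitaxel 1, control 1 or control 3 (adjusted p 0.0535 to 0.0711). Its adjusted p was 0.148 in the fit of the 2 groups alone, the highest over its alternatives.

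The following mevalonate enzymes changed less evenly. MVK, mevalonate kinase, was low, at 2.29, 2.39 and 2.44 FPKM after radiation, 2.31, 2.87 and 2.64 after nab-paclitaxel and 3.10, 2.33 and 3.14 after the combination, against 2.29, 1.37 and 2.03 in control. Control 2 was the lowest library and the combination libraries all exceeded control. The change of 0.42 ± 0.13 (adjusted p = 0.0393) after the combination passed the threshold, but not without radiation 1, 2 or 3, nab-paclitaxel 3, combination 1 or 3, or control 2 or 3 (adjusted p 0.0537 to 0.133). With the replicate number as a block in the fit of all groups MVK did not pass (adjusted p 0.0533). A block in the combination and control libraries alone gave 0.0158. That pair was picked after its same-numbered libraries were seen to deviate together, so lower p-values follow from the choice. The block there called 5114 of all genes, against 3111 without a block in the 12 libraries, and adds no support to the call. PMVK, phosphomevalonate kinase, and MVD, mevalonate diphosphate decarboxylase, were called in no comparison; MVD was -0.0099 ± 0.13 (adjusted p = 0.982) after radiation, 0.40 ± 0.13 (adjusted p = 0.0794) after nab-paclitaxel and 0.081 ± 0.13 (adjusted p = 0.701) after the combination. PMVK averaged 6.69 ± 1.58 FPKM after radiation, 8.52 ± 1.13 after nab-paclitaxel and 7.95 ± 1.65 after the combination, against 7.28 ± 1.61 in control (SD, n = 3).

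IDI1 (chr10:1039152-1049170) isomerises isopentenyl diphosphate, the isoprenoid building block. Its levels were 10.2, 9.56 and 10.6 FPKM after radiation, 20.8, 12.7 and 14.7 after nab-paclitaxel and 13.3, 16.1 and 13.4 after the combination, against 8.15, 11.3 and 7.63 in control. Nab-paclitaxel 1 was far above the other libraries, yet the lowest library with the drug still exceeded all 6 without it. IDI1 rose by 0.76 ± 0.17 (adjusted p = 0.022) after nab-paclitaxel and by 0.62 ± 0.17 (adjusted p = 0.0224) after the combination, and was 0.17 ± 0.17 (adjusted p = 0.672) after radiation. The first call was lost without nab-paclitaxel 1, control 1 or control 3 (adjusted p 0.0516 to 0.0741, and 0.153 at most over its alternatives). The second was lost without combination 2, control 1 or control 3 (0.0700 to 0.0810). FDPS, which makes farnesyl diphosphate, had 6.41, 6.57 and 6.29 FPKM after radiation, 7.45, 9.58 and 8.79 after nab-paclitaxel and 7.65, 6.69 and 8.30 after the combination, against 7.63, 5.99 and 6.83 in control. The drug-treated libraries lay above those of radiation but overlapped control, and FDPS passed against control in no comparison.

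Farnesyl-diphosphate farnesyltransferase, encoded by FDFT1 (chr8:11795573-11839309), makes squalene in the first step committed to sterols. FDFT1 had 12.5, 13.5 and 13.6 FPKM after radiation, 28.2, 24.3 and 25.6 after nab-paclitaxel and 23.5, 22.9 and 23.2 after the combination, against 15.2, 13.3 and 14.4 in control. The lowest library with the drug (22.9 FPKM) lay well above the highest without it (15.2 FPKM). It rose by 0.82 ± 0.078 (adjusted p = 0.000765) after nab-paclitaxel, 1.82 times the control mean, and by 0.66 ± 0.078 (adjusted p = 0.000295) after the combination; it was -0.10 ± 0.078 (adjusted p = 0.536) after radiation. The combination call held in all 24 alternatives and the drug call in 22 of 23, with an adjusted p of 0.0621 in the fit of the 2 groups alone. SQLE (chr8:124998497-125022283), the squalene epoxidase, was at 6.09, 6.35 and 5.98 FPKM after radiation, 10.1, 8.85 and 7.96 after nab-paclitaxel and 7.61, 8.16 and 6.59 after the combination, against 5.82, 6.28 and 6.27 in control. Its libraries with the drug all exceeded those without. SQLE rose by 0.48 ± 0.095 (adjusted p = 0.0141) after nab-paclitaxel; the combination change was 0.24 ± 0.095 (adjusted p = 0.0872) and the radiation change 0.0042 ± 0.095 (adjusted p = 0.989). Its adjusted p was 0.137 in the fit of the 2 groups alone and under the threshold in the other 22 alternatives.

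The enzymes that form and first trim lanosterol did not pass. LSS, lanosterol synthase, averaged 9.92 ± 0.807 FPKM after radiation, 8.72 ± 1.5 after nab-paclitaxel and 8.05 ± 1.06 after the combination, against 9.96 ± 1.83 in control (SD, n = 3), and was the 1 sterol enzyme below 0 after nab-paclitaxel, at -0.17 ± 0.15 (adjusted p = 0.496). CYP51A1, which removes a methyl group from lanosterol, was the lowest tested member, with 1.41 ± 0.136 FPKM after radiation, 1.64 ± 0.801 after nab-paclitaxel and 1.21 ± 0.323 after the combination, against 1.43 ± 0.653 in control (SD, n = 3). Its libraries spread from 0.691 FPKM in control 2 to 2.39 FPKM in nab-paclitaxel 2. The change after nab-paclitaxel was 0.11 ± 0.24 (adjusted p = 0.807).

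Of the 2 sterol reductases that act next, LBR fell and TM7SF2 did not pass. LBR (chr1:225401502-225428925), which is also the lamin B receptor of the inner nuclear membrane, had 19.1, 19.1 and 19.2 FPKM after radiation, 34.1, 27.0 and 28.6 after nab-paclitaxel and 19.8, 24.1 and 20.3 after the combination, against 27.0, 33.1 and 24.3 in control. The radiation libraries were nearly equal and lay below every control library, as did the combination libraries. LBR fell by 0.52 ± 0.12 (adjusted p = 0.0294) on the log2 scale after radiation and by 0.37 ± 0.12 (adjusted p = 0.0481) after the combination. After nab-paclitaxel it was 0.088 ± 0.12 (adjusted p = 0.692). The radiation call was lost without radiation 1, 2 or 3 or without control 1 or 2 (adjusted p 0.0660 to 0.106). The combination call was lost without radiation 1, 2 or 3, nab-paclitaxel 2 or 3, combination 1 or 3, or control 1 or 2 (0.0501 to 0.148). It was also lost with the replicate block over all groups (0.0653). The block in the paired groups alone, picked as said for MVK, gave 0.00936 and adds no support. TM7SF2 averaged 15.9 ± 1.58 FPKM after radiation, 18.0 ± 3.23 after nab-paclitaxel and 20.1 ± 4.68 after the combination, against 14.2 ± 3.94 in control (SD, n = 3), and overlaps VPS51 on the same strand (mean 11.6 FPKM).

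MSMO1 (chr4:165327623-165343160), the methylsterol monooxygenase that starts the removal of the C4 methyl groups, had 22.3, 21.9 and 23.0 FPKM after radiation, 41.3, 29.8 and 31.4 after nab-paclitaxel and 31.3, 38.4 and 33.1 after the combination, against 17.8, 28.0 and 20.6 in control. The libraries with the drug exceeded those without it, and nab-paclitaxel 1, combination 2 and control 2 were each the highest of their groups. It rose by 0.61 ± 0.16 (adjusted p = 0.0375) after nab-paclitaxel and by 0.63 ± 0.16 (adjusted p = 0.0157) after the combination, against 0.039 ± 0.16 (adjusted p = 0.936) after radiation. Leaving out any of radiation 1, 2 and 3, nab-paclitaxel 1 and 3, combination 1 and 3, and control 1 and 3 ended the first call (adjusted p 0.0509 to 0.105, and 0.191 at most over its alternatives). Leaving out combination 2, control 1 or control 3 ended the second (0.0515 to 0.0584). NSDHL (chrX:152830967-152869729), the dehydrogenase of the same demethylation, had 7.19, 6.33 and 7.91 FPKM after radiation, 7.51, 10.7 and 9.88 after nab-paclitaxel and 11.2, 6.94 and 9.53 after the combination, against 6.64, 4.27 and 6.16 in control. Here nab-paclitaxel 1, combination 2 and control 2 were the lowest of their groups. NSDHL rose by 0.61 ± 0.18 (adjusted p = 0.034) after the combination, a call lost without combination 1 or 3 or control 2 or 3 (0.0539 to 0.129); after nab-paclitaxel it was 0.64 ± 0.18 (adjusted p = 0.0537) and after radiation 0.30 ± 0.18 (adjusted p = 0.424).

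The last enzymes of the route did not pass against control, and neither did HSD17B7, which is not one of them. EBP, the sterol isomerase, had 6.79, 7.10 and 6.6 FPKM after radiation, 12.2, 13.0 and 9.89 after nab-paclitaxel and 10.2, 7.29 and 8.36 after the combination, against 9.41, 6.62 and 8.60 in control. The nab-paclitaxel libraries exceeded control, with a change of 0.47 ± 0.14 (adjusted p = 0.0601), while the combination libraries overlapped it, with 0.062 ± 0.14 (adjusted p = 0.788). SC5D, the sterol desaturase, changed by 0.19 ± 0.18 (adjusted p = 0.643) after radiation, 0.26 ± 0.18 (adjusted p = 0.382) after nab-paclitaxel and 0.37 ± 0.18 (adjusted p = 0.152) after the combination. DHCR7, the reductase that forms cholesterol from its immediate precursor, changed by 0.27 ± 0.13 (adjusted p = 0.209) after nab-paclitaxel and 0.22 ± 0.13 (adjusted p = 0.254) after the combination; AP002387.1 overlaps it on the opposite strand (mean 8.33 FPKM). HSD17B7 averaged 4.38 ± 0.201 FPKM after radiation, 4.73 ± 1.27 after nab-paclitaxel and 4.12 ± 0.276 after the combination, against 4.33 ± 0.565 in control (SD, n = 3), and its reads may be shared with the expressed pseudogene HSD17B7P2 (mean 3.90 FPKM).

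**Figure D2:**
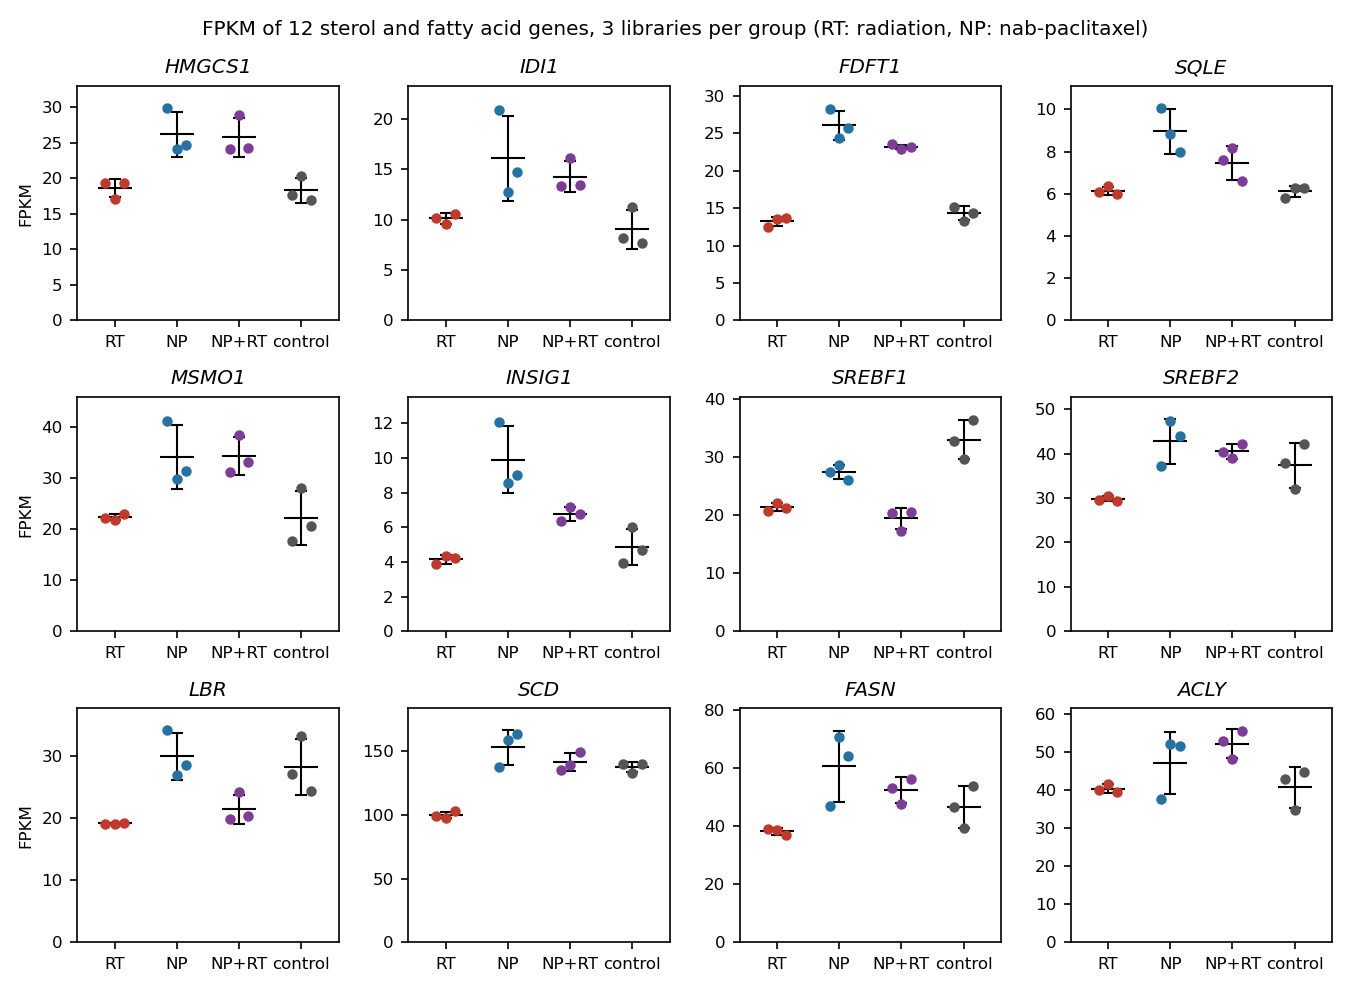
FPKM (y axis, from 0) of 12 genes in each library (points) by group (x axis; RT is radiation, NP nab-paclitaxel), with the mean and SD of 3 libraries. The 6 libraries with the drug lie above the 6 without it for HMGCS1, IDI1, FDFT1, SQLE, MSMO1 and INSIG1, and the radiation libraries lie below all others for SREBF2, LBR, SCD and FASN. The share of all genes with such separations was not counted, so they cannot be read as a trait of these genes.

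Of the 8 regulators INSIG1 and MYLIP rose and SREBF1 fell. INSIG1 (chr7:155297776-155310235), which retains the SREBP escort, had 3.88, 4.34 and 4.26 FPKM after radiation, 12.1, 8.59 and 9.03 after nab-paclitaxel and 6.40, 7.21 and 6.77 after the combination, against 3.92, 6.01 and 4.71 in control. The nab-paclitaxel libraries lay above all others, the combination libraries came next and still above every control library, and radiation overlapped control. INSIG1 rose by 0.89 ± 0.14 (adjusted p = 0.00603) after nab-paclitaxel, 2.03 times the control mean, and by 0.42 ± 0.14 (adjusted p = 0.05) after the combination; it was -0.17 ± 0.14 (adjusted p = 0.556) after radiation. The combination call lay at the threshold and was lost without radiation 1, 2 or 3, nab-paclitaxel 3, any combination library, or control 1 or 3 (adjusted p 0.0604 to 0.164). With the replicate block over all groups it was lost (0.0807). The block in the paired groups alone, picked as said for MVK, gave 0.0155 and adds no support. INSIG2, its homologue, averaged 7.54 ± 0.586 FPKM after radiation, 6.31 ± 1.19 after nab-paclitaxel and 6.59 ± 0.956 after the combination, against 6.64 ± 1.85 in control (SD, n = 3), and changed by -0.049 ± 0.17 (adjusted p = 0.886) after nab-paclitaxel. SCAP, the escort itself, was -0.0073 ± 0.084 (adjusted p = 0.981) after radiation, -0.015 ± 0.084 (adjusted p = 0.93) after nab-paclitaxel and -0.15 ± 0.084 (adjusted p = 0.216) after the combination.

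SREBF1 (chr17:17810399-17837002) had 20.8, 22.1 and 21.3 FPKM after radiation, 27.5, 28.6 and 26.2 after nab-paclitaxel and 20.4, 17.4 and 20.6 after the combination, against 32.8, 29.7 and 36.5 in control. The groups did not overlap in any pair: control was highest, then nab-paclitaxel, then radiation, then the combination. SREBF1 fell by 0.60 ± 0.09 (adjusted p = 0.00428) on the log2 scale after radiation and by 0.73 ± 0.09 (adjusted p = 0.000381) after the combination, to 0.649 and 0.590 times the control mean. After nab-paclitaxel its change was -0.25 ± 0.093 (adjusted p = 0.107). Both calls held in all alternatives, with adjusted p up to 0.0270 after radiation and 0.00931 after the combination. SREBF1 overlaps RAI1 on the opposite strand (mean 9.25 FPKM). The values do not separate its long and short transcripts. SREBF2 (chr22:41833079-41907308) had 29.5, 30.5 and 29.4 FPKM after radiation, 37.3, 47.2 and 43.9 after nab-paclitaxel and 40.4, 38.9 and 42.2 after the combination, against 37.9, 32.0 and 42.2 in control. All radiation libraries were below every other library, while the other groups overlapped. Against control SREBF2 was -0.31 ± 0.11 (adjusted p = 0.135) after radiation, 0.19 ± 0.11 (adjusted p = 0.284) after nab-paclitaxel and 0.12 ± 0.11 (adjusted p = 0.456) after the combination. The antisense gene SREBF2-AS1 overlaps it (mean 3.03 FPKM).

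MYLIP, a ubiquitin ligase that marks lipoprotein receptors for degradation, had 10.3, 9.71 and 10.4 FPKM after radiation, 11.2, 9.70 and 9.49 after nab-paclitaxel and 10.8, 11.7 and 10.0 after the combination, against 8.05, 8.46 and 8.51 in control. All 9 treated libraries exceeded the 3 of control. It rose by 0.34 ± 0.083 (adjusted p = 0.0132) after the combination, in all 24 alternatives; the changes of 0.25 ± 0.083 (adjusted p = 0.104) after radiation and 0.25 ± 0.083 (adjusted p = 0.0792) after nab-paclitaxel did not pass. STARD4, a carrier of sterol between membranes, averaged 14.6 ± 0.642 FPKM after radiation, 17.7 ± 4.31 after nab-paclitaxel and 13.0 ± 2.47 after the combination, against 20.1 ± 6.15 in control (SD, n = 3), with changes of -0.40 ± 0.20 (adjusted p = 0.32) after radiation and -0.56 ± 0.20 (adjusted p = 0.0686) after the combination. NPC1, which exports cholesterol from lysosomes, was 0.15 ± 0.095 (adjusted p = 0.268) after the combination and overlaps RMC1 on the opposite strand (mean 17.0 FPKM).

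Among the fatty acid genes 1 call was made against control. SCD (chr10:100347124-100364834), the desaturase that makes oleate and the most abundant member by FPKM, had 99.3, 97.8 and 103 FPKM after radiation, 137, 158 and 163 after nab-paclitaxel and 135, 139 and 149 after the combination, against 139.6, 133 and 140.0 in control. All radiation libraries lay far below the other 9. SCD fell by 0.46 ± 0.08 (adjusted p = 0.00801) on the log2 scale after radiation, to 0.726 times the control mean, and was 0.15 ± 0.082 (adjusted p = 0.279) after nab-paclitaxel and 0.036 ± 0.082 (adjusted p = 0.788) after the combination. The radiation call was lost with values scaled to each library's own total (adjusted p 0.0566) and with quantile normalization (0.186, the highest over its alternatives). FASN, the fatty acid synthase, had 39.1, 38.8 and 36.8 FPKM after radiation, 47.0, 70.8 and 64.0 after nab-paclitaxel and 53.1, 47.6 and 56.4 after the combination, against 46.5, 39.2 and 53.6 in control. Radiation libraries again were below all others, and nab-paclitaxel 1 was the lowest of its group. Its changes against control were -0.26 ± 0.15 (adjusted p = 0.373) after radiation, 0.37 ± 0.15 (adjusted p = 0.138) after nab-paclitaxel and 0.18 ± 0.15 (adjusted p = 0.418) after the combination.

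The enzymes that feed FASN did not pass. ACLY, which releases acetyl-CoA from citrate, was -0.0069 ± 0.13 (adjusted p = 0.987) after radiation, 0.20 ± 0.13 (adjusted p = 0.36) after nab-paclitaxel and 0.35 ± 0.13 (adjusted p = 0.0719) after the combination. ACACA, the acetyl-CoA carboxylase that makes malonyl-CoA, was -0.14 ± 0.14 (adjusted p = 0.654), -0.16 ± 0.14 (adjusted p = 0.504) and -0.036 ± 0.14 (adjusted p = 0.881) in the same order. The elongase ELOVL6 averaged 6.59 ± 0.723 FPKM after radiation, 7.52 ± 0.408 after nab-paclitaxel and 7.67 ± 0.747 after the combination, against 6.89 ± 0.985 in control (SD, n = 3). The desaturase FADS1 averaged 5.41 ± 0.154 FPKM after radiation, 6.39 ± 0.420 after nab-paclitaxel and 5.96 ± 0.314 after the combination, against 6.73 ± 0.542 in control (SD, n = 3); its change after radiation was -0.27 ± 0.079 (adjusted p = 0.071). LPIN1, the phosphatidate phosphatase of glycerolipid synthesis, stayed within 4.0 to 4.95 FPKM over the 12 libraries.

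Set side by side, the summed sterol enzymes stood higher in both drug groups. The summed fatty acid genes were lower after radiation alone, mostly through SCD, but not in the combination. Their means in both drug groups were also above control (293 and 279 against 258 FPKM), though libraries of these groups overlapped control. The median log2 fold change of the 19 sterol enzymes was 0.016 after radiation, 0.35 after nab-paclitaxel and 0.24 after the combination. In the same order the medians were -0.14, 0.12 and 0.040 for the 7 tested fatty acid genes, -0.091, -0.0094 and 0.065 for the 8 regulators, and -0.017, 0.037 and 0.0036 for all genes. After nab-paclitaxel 18 of 19 sterol enzymes were above 0, against 56.1% of all genes, and after radiation 6 of 7 fatty acid genes were below 0, as were 7294 of all 13609 genes. Added up, the sterol enzymes came to 195 ± 3.83 FPKM after radiation, 269 ± 13.1 after nab-paclitaxel and 246 ± 3.85 after the combination, against 199.9 ± 3.14 in control (SD, n = 3 each). The fatty acid genes came to 209 ± 0.941, 293 ± 36.6 and 279 ± 13.8 FPKM in the treated groups in that order, against 258 ± 16.8 in control. Of these sums SCD alone made up 99.9 ± 2.53 FPKM after radiation, against 138 ± 3.89 in control, and it was the 1 fatty acid gene called, a call that 2 scalings ended as given above. For the sterol enzymes the drug-treated libraries all exceeded the rest, and for the fatty acid genes the radiation libraries were below all others. The difference between these groups of genes was not tested. The drug median of the fatty acid genes was -0.062 under quantile normalization and 0.025 without control 1, and that of the sterol enzymes was 0.25 without control 2.

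**Figure D3:**
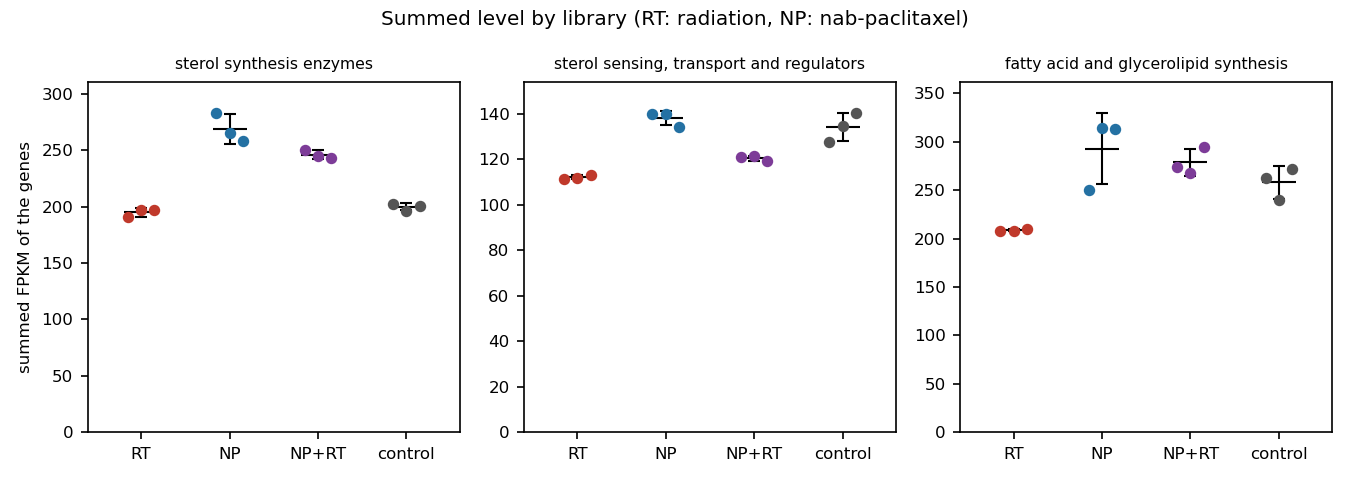
Summed FPKM (y axes, from 0) of the genes of each role by library (points), with the mean and SD of 3 libraries per group (RT is radiation, NP nab-paclitaxel). The sterol enzymes are highest in both drug groups (269 and 246 FPKM on average, against 199.9 in control), and the fatty acid genes are lowest after radiation (209 against 258 FPKM in control).

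Adding the drug to radiation was set against adding radiation to the drug. In the combination against radiation 7 members rose and 0 fell, where 4.81% of all genes rose and 2.95% fell. FDFT1 rose by 0.77 ± 0.078 (adjusted p = 0.0006), SCD by 0.49 ± 0.082 (adjusted p = 0.00645), ACAT2 by 0.51 ± 0.10 (adjusted p = 0.015), INSIG1 by 0.59 ± 0.14 (adjusted p = 0.028), HMGCS1 by 0.45 ± 0.11 (adjusted p = 0.0333), SREBF2 by 0.43 ± 0.11 (adjusted p = 0.0373) and MSMO1 by 0.59 ± 0.16 (adjusted p = 0.0465). In SCD and SREBF2 the radiation libraries lay below all 9 others. The call of SCD was lost with values scaled to each library's own total (adjusted p 0.0517) and under quantile normalization (0.194, with a change of 0.26). Quantile normalization also ended the calls of HMGCS1, MSMO1 and SREBF2 (0.0835 to 0.228), and the library total that of SREBF2 (0.178). Size factors over the tested genes ended those of MSMO1 and SREBF2 (0.0563 and 0.0609). The call of ACAT2 was lost without radiation 2 or 3 or combination 1 or 3 (adjusted p 0.0605 to 0.0680). Those of HMGCS1, INSIG1, MSMO1 and SREBF2 were each lost without any 1 of the 6 libraries compared (0.0625 to 0.140). Those of MSMO1 and SREBF2 were also lost without some libraries of other groups, namely nab-paclitaxel 2, nab-paclitaxel 3 or control 3, and nab-paclitaxel 3 or control 1 (0.0510 to 0.0604). In the combination against nab-paclitaxel 0 members rose and 1 fell, where 1.21% of all genes rose and 2.7% fell. This was SREBF1, which fell by 0.48 ± 0.09 (adjusted p = 0.0160), a call lost without nab-paclitaxel 2 (0.0603) or combination 2 (0.0592), and with values scaled to each library's own total (0.0660). INSIG1 and LBR, also below the drug alone in every library, changed by -0.47 ± 0.14 (adjusted p = 0.0942) and -0.46 ± 0.12 (adjusted p = 0.0633). Without nab-paclitaxel 1, combination 2 and control 2, 16 members rose and 1 fell against radiation (18.8% and 11.5% of all genes), and 0 rose and 4 fell against nab-paclitaxel (3.75% and 5.81%).

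The 2 single treatments differed in more members than either did from control, as they did over all genes. Of all genes 2196 were called between them, against 807 for radiation and 1200 for nab-paclitaxel versus control. In nab-paclitaxel against radiation 14 members rose and 0 fell, where 10.6% of all genes rose and 5.58% fell. INSIG1 rose by 1.07 ± 0.14 (adjusted p = 0.000901), FDFT1 by 0.92 ± 0.078 (adjusted p = 6.37e-05), SCD by 0.60 ± 0.082 (adjusted p = 0.0011), ACAT2 by 0.58 ± 0.10 (adjusted p = 0.00418), SQLE by 0.48 ± 0.095 (adjusted p = 0.0079), LBR by 0.61 ± 0.12 (adjusted p = 0.00819) and EBP by 0.69 ± 0.14 (adjusted p = 0.00869). These calls held without each library in turn. SREBF2 rose by 0.50 ± 0.11 (adjusted p = 0.0116), FASN by 0.63 ± 0.15 (adjusted p = 0.0163), HMGCS1 by 0.47 ± 0.11 (adjusted p = 0.016), IDI1 by 0.59 ± 0.17 (adjusted p = 0.0358), MSMO1 by 0.57 ± 0.16 (adjusted p = 0.0316), FDPS by 0.37 ± 0.11 (adjusted p = 0.0409) and SREBF1 by 0.34 ± 0.093 (adjusted p = 0.0288). Under quantile normalization 6 of the 14 calls were left. Those of SREBF1, SCD, SREBF2 and FASN were lost (adjusted p 0.347, 0.248, 0.180 and 0.178), with changes of 0.15 for SREBF1, 0.22 for SCD and 0.37 for FASN, as were those of MSMO1, HMGCS1, FDPS and IDI1 (0.0715 to 0.137). With values scaled to each library's own total FDPS, SREBF1, SREBF2 and FASN did not pass (0.0767 to 0.175), and with size factors over the tested genes IDI1, FDPS and SREBF1 did not (0.0530 to 0.0886). Leaving out any radiation library ended the calls of IDI1, FDPS, MSMO1, SREBF1 and FASN, as did leaving out nab-paclitaxel 1 or 3 or combination 3 for IDI1, nab-paclitaxel 2 or 3, combination 1 or control 3 for FDPS, nab-paclitaxel 1 for MSMO1, nab-paclitaxel 1 or 2 for SREBF1 and nab-paclitaxel 2 for FASN. The adjusted p values were then 0.0505 to 0.124. HMGCS1 lost its call without radiation 2 (0.0684). Without the 3 libraries that stand apart 20 members rose and 1 fell, where 19.8% of all genes rose and 10.1% fell.

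The share of higher calls over all genes moved with the scaling. Of all genes called in nab-paclitaxel against radiation 65.4% were higher, but 51.0% under quantile normalization, 50.7% with size factors over the tested genes and 61.1% with library totals. In nab-paclitaxel against control the share was 61.3%, with 48.3%, 49.3% and 58.0% under the same settings, and in the combination against radiation 62.0%, with 52.1%, 50.9% and 52.9%. In the combination against nab-paclitaxel it was 31.0%, with 41.8%, 38.0% and 23.7%. Among the calls against control, library totals ended those of MVK and NSDHL after the combination (adjusted p 0.108 and 0.0956), beside SCD after radiation. Quantile normalization ended those of HMGCS1 and MSMO1 after nab-paclitaxel (0.0571 and 0.0806), and size factors that of INSIG1 after the combination (0.0513). With no filter on low genes the calls of HMGCS1, IDI1 and MSMO1 after nab-paclitaxel, of MVK, IDI1, LBR, NSDHL and INSIG1 after the combination and of LBR after radiation were lost (0.0527 to 0.129). No called member changed its direction under any setting.

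Whether radiation changed the response to the drug was tested by the interaction of both treatments, the combination minus both single changes. In limma 0 of the 34 members passed, and 0% of the 13609 genes; 1 member and 443 genes had an unadjusted p under 0.05. With voom on recovered fragments these were 1 member and 366 genes, and 0 passed. The member in limma was SCD, with an interaction of 0.35 (95% interval 0.092 to 0.60, adjusted p = 0.9997). The 95% interval of the interaction was -0.73 to 0.13 for INSIG1 and -0.17 to 0.40 for SREBF1.

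Nab-paclitaxel 1, combination 2 and control 2 were picked by their scores over all tested genes, so genes at the extremes of their groups there follow from the choice. In these 3 libraries 10 of the 34 tested members had the highest value of their group each time. That share, 29.4%, was near the 24.6% of all genes. They were HMGCS1, IDI1, SQLE, LBR, MSMO1, SC5D, STARD4, INSIG1, INSIG2 and ELOVL6. Another 14 members (41.2%) had the lowest value in all 3, against 21.1% of all genes. These included MVK, MVD, LSS, CYP51A1, NSDHL, SREBF2, FASN, ACACA and ACLY. Members of the same route stood on both sides: of the sterol enzymes HMGCS1, IDI1 and MSMO1 were high where MVD, LSS and CYP51A1 were low. The cause of this pattern was not tested. In the fit without these 3 libraries, FASN changed by -0.38 after radiation (adjusted p = 0.00953) and by 0.42 after nab-paclitaxel (adjusted p = 0.0143). There SREBF2 changed by -0.41 after radiation (adjusted p = 0.00283). ACLY changed by 0.24 after nab-paclitaxel (adjusted p = 0.0197) and by 0.30 after the combination (adjusted p = 0.00243). These adjusted p values run low because the libraries were dropped for standing apart. Calls over all genes after radiation went from 807 to 2947.

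**Figure D4:**
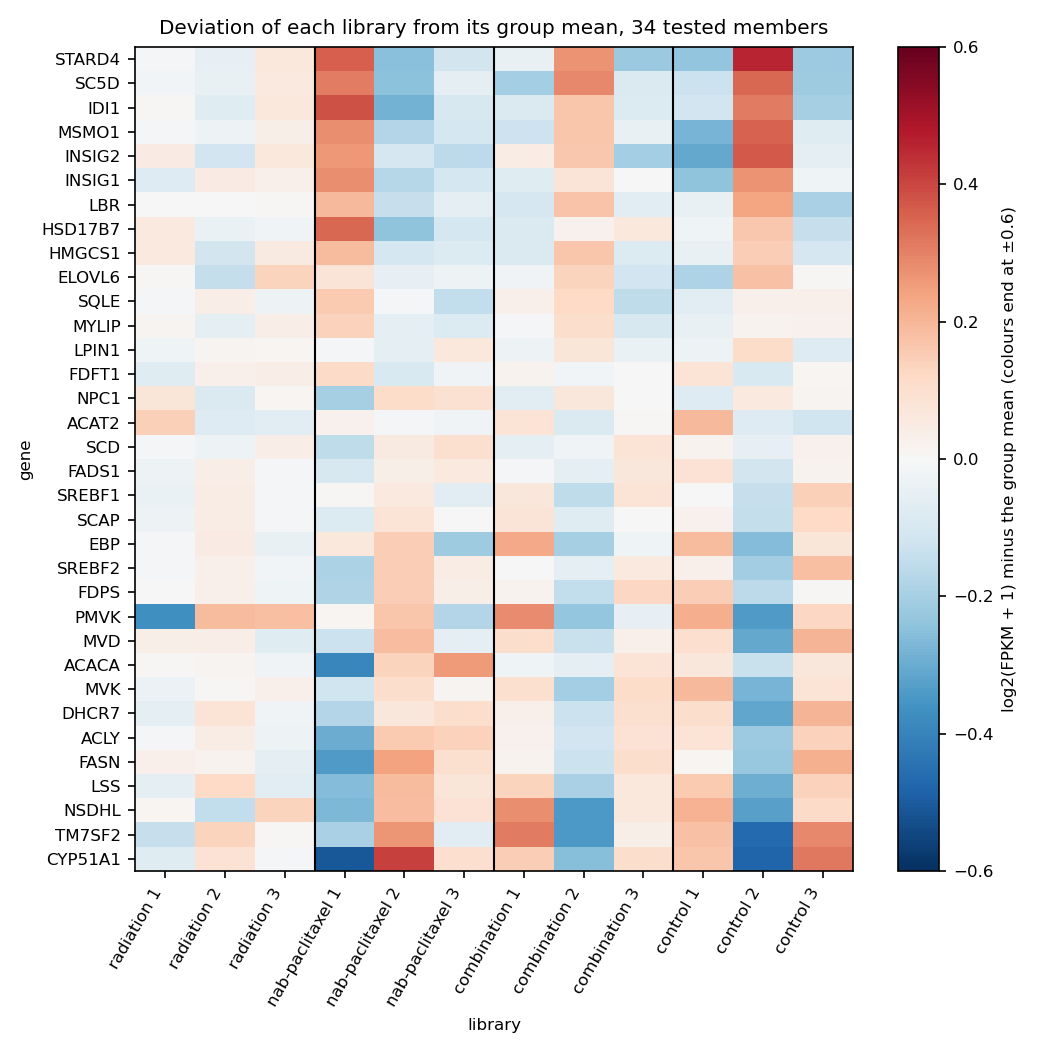
Deviation of log2(FPKM + 1) from the group mean (colour) for the 34 tested genes (rows) in the 12 libraries (columns). Nab-paclitaxel 1, combination 2 and control 2 share a pattern in which STARD4, SC5D, IDI1 and MSMO1 are high and CYP51A1, TM7SF2, NSDHL and LSS are low.

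Genes of neighbouring pathways were read from the same fit, in which 2.48% of all genes rose and 3.45% fell after radiation, 5.41% and 3.41% after nab-paclitaxel, and 12.2% and 10.6% after the combination. Of 17 genes of SREBP processing and sterol-regulated degradation, 1 fell after radiation, 0 changed after nab-paclitaxel and 2 fell after the combination. The ubiquitin ligase RNF145 averaged 16.5 ± 0.554 FPKM after radiation, 18.8 ± 0.898 after nab-paclitaxel and 15.7 ± 0.451 after the combination, against 22.3 ± 2.21 in control (SD, n = 3), and fell by 0.41 ± 0.08 (adjusted p = 0.0128) after radiation and by 0.48 ± 0.08 (adjusted p = 0.00196) after the combination. MBTPS1, the Golgi protease that first cuts SREBP, fell by 0.28 ± 0.06 (adjusted p = 0.00823) after the combination. Of 15 genes of the isoprenoid branch, which leaves the sterol route at farnesyl diphosphate, 2 rose and 1 fell after radiation, 1 rose after nab-paclitaxel, and 3 rose and 1 fell after the combination, 4 of 15 where 3111 of 13609 genes were called. The Rab prenylation subunits moved apart, RABGGTB falling by 0.87 ± 0.12 (adjusted p = 0.000558) and RABGGTA rising by 0.32 ± 0.074 (adjusted p = 0.0109) after the combination. The dolichol genes SRD5A3 and DHDDS rose by 0.64 ± 0.095 (adjusted p = 0.000922) and 0.48 ± 0.10 (adjusted p = 0.00571) there. Of 13 tested genes of sterol esterification, export and the LXR receptors, 4 rose after the combination (LPCAT3, LIPA, OSBP and STARD3) and 0 changed after either treatment alone.

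On the fatty acid side, of 23 tested genes of synthesis, activation and elongation outside the main list 1 fell after radiation, 2 rose after nab-paclitaxel, and 7 rose and 1 fell after the combination, read against the same shares of all genes (5.41% and 12.2% rose after nab-paclitaxel and the combination). ACSL5, which activates fatty acids, averaged 4.78 ± 0.261 FPKM after radiation, 6.39 ± 0.175 after nab-paclitaxel and 9.26 ± 0.389 after the combination, against 4.37 ± 0.288 in control (SD, n = 3), and rose by 0.46 ± 0.072 (adjusted p = 0.00612) after nab-paclitaxel and 0.93 ± 0.072 (adjusted p = 2.33e-05) after the combination. The elongase ELOVL1 rose by 0.44 ± 0.087 (adjusted p = 0.0139) and 0.70 ± 0.087 (adjusted p = 0.000368) in the same comparisons. MID1IP1, an activator of acetyl-CoA carboxylase, fell by 0.42 ± 0.07 (adjusted p = 0.00725) after radiation and by 0.39 ± 0.07 (adjusted p = 0.00378) after the combination. Of 18 genes of glycerolipid synthesis 0 changed after radiation, 3 rose after nab-paclitaxel (GPAT3, LPIN2 and AGPAT2), and 2 rose and 1 fell after the combination, where the 3 of 18 called lie below the share over all genes. Fatty acid oxidation, the opposite route, had 17 tested genes, of which 1 rose after radiation, 4 after nab-paclitaxel and 8 after the combination, and 0 fell in any of the 3. The carnitine carrier SLC25A20 rose by 0.44 ± 0.11 (adjusted p = 0.0302) after nab-paclitaxel and 0.64 ± 0.11 (adjusted p = 0.00174) after the combination. The median change of the oxidation genes was 0.011, 0.30 and 0.29 in the order radiation, nab-paclitaxel, combination.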

How the data were processed

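Messenger RNA libraries of TFK1 cells were made with a SMARTer kit, per the labels' protocols. The authors deposited 1 table of FPKM values for 58735 genes with gene lengths and 12 library columns, per the file headers. The submitters' processing notes name hg38 as the build. No aligner, counter or strand setting is given in the sources used here. FPKM times gene length gave whole multiples of 1 step for 100% of values in every library (within 0.05), so fragment numbers could be recovered; they totalled 14840283 to 17992242 per library. The step did not follow a library's own total exactly, so scaling to that total (TPM) was tried as an alternative. Recovered numbers were used for depth and for voom, and intervals cover the spread between libraries.

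limma 3.58.1 in R 4.3.3 modelled log2(FPKM + 1), with a variance trend over mean level, 1 spread shared by the 4 groups and no replicate block, over 13609 genes whose mean reached 1 FPKM (8 residual and 3.39 prior degrees of freedom). Tests were two-sided, with Benjamini-Hochberg adjustment within each contrast over all genes and a threshold of 0.05. The members, gene lists and tests were chosen with earlier results of these data known, so counts and medians of the lists are descriptions. Values in every library are printed for members past the threshold in any pairwise contrast, and up to 4 genes of each other list are named, by smallest p. The rule for promoters was members called against control that hold the full sterol regulatory element. It found none among members with a listed start, so those shown were chosen after their values were seen. In the control and combination groups, deviations of same-numbered libraries correlated (r = 0.233, 0.543 and 0.172 for replicates 1, 2 and 3), although no label links a number to a common batch. Tried instead were no filter, a filter at 5 FPKM, a pseudocount of 0.1, TPM scaling, size factors over tested genes, quantile normalization, no trend, voom, only the 2 groups compared, the replicate block, leaving out each library, and leaving out the 3 libraries that stand apart. The fit was tested on simulated data first. Some genes of the background lists are counted but not reported by name here.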

Additional observations from a re-analysis of the deposited data

How the results depend on the processing

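No called member reversed its direction under any setting. Of 491 member calls against control recomputed under the alternatives, 400 passed the threshold and 91 did not. The number of members called after radiation, 3, was 2 to 5 when each library was left out in turn and 11 without control 2, nab-paclitaxel 1 and combination 2. Counts over all 13609 genes shifted as well: 807 became 320 to 1305, and 2947, in these settings. After nab-paclitaxel, 7 became 4 with no filter, 0 with only the 2 groups compared, 4 to 8 over the left-out libraries and 12 without the 3 libraries. The 1200 calls over all genes became 579, 8, 524 to 1181, and 1836 in that order. After the combination, 11 became 6 with no filter, 7 with only the 2 groups compared, 6 to 14 over the left-out libraries and 18 without the 3. Over all genes, 3111 became 2477, 2089, 1964 to 3926, and 5049 in that order. For the combination against radiation, 7 became 3 with no filter, 3 under quantile normalization, 3 with the replicate block, 2 to 10 over the left-out libraries and 17 without the 3. Genes called went from 1055 to 577, 861, 606, 218 to 1879, and 4128 in that order. For the combination against nab-paclitaxel, 1 became 2 with a mean of at least 5 FPKM, 2 with TPM scaling, 0 with only the 2 groups compared, 0 to 3 over the left-out libraries and 4 without the 3. Here 533 calls over all genes became 429, 455, 93, 177 to 734, and 1301. For nab-paclitaxel against radiation, 14 became 6 under quantile normalization and 8 to 15 over the left-out libraries, where 2196 of all genes became 1542 and 951 to 2806. The cause of these shifts was not tested. The median change after nab-paclitaxel was -0.062 under quantile normalization and 0.025 to 0.12 over the left-out libraries for the fatty acid genes, and 0.25 to 0.44 over the left-out libraries for the sterol enzymes. With the replicate block the calls in the other contrasts were 2 after radiation, 6 after nab-paclitaxel, 8 after the combination, 1 for the combination against nab-paclitaxel, 10 for nab-paclitaxel against radiation and 0 for the interaction. Over all genes these were 531, 701, 2660, 306, 1742 and 0. A block fitted in the paired control and combination libraries alone, a fit chosen after seeing the data, called 16 members and 5114 of all genes. In no other pair of groups were all 3 correlations of same-numbered libraries over 0.1 (they ran from -0.492 to 0.177), so there the block pairs libraries that share only a number. With 3 libraries per group and members resting on as few as 38 fragments, a change that did not pass is not shown to be absent.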
